A study of Mus musculus with 16 samples.

Results

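The mitochondrial genome of the mouse is represented here by the 37 genes whose chromosome is given as MT in the deposited count tables, out of 55414 genes in all. They comprise 13 mRNAs, 2 rRNAs (mt-Rnr1 and mt-Rnr2) and 22 tRNAs, and each was followed in every library. The study stopped transcription with actinomycin D at 5 µM and sampled the cells at 0, 1, 3 and 5 h, in 2 genotypes that the labels call wild type and Nat10 deficiency. Nat10 encodes an RNA acetyltransferase. The labels give the cells as long-term hematopoietic stem cells from mouse bone marrow. Lineage-depleted marrow was cultured in serum-free medium, and the stem cells were sorted at each time. The sample titles name 32D, an established mouse myeloid cell line, instead. How Nat10 was lost, the age of the mice and the number of animals behind each library are not given in the sources used here. Equal amounts of ERCC spike-in RNA were added, and libraries were made by Smart-seq2, which primes on poly(A). Each of the 8 groups had 2 files, although the headers of both files of each group name a single alignment. Error bars and p-values from the 16 files therefore measure the spread between these files only, and may not hold the variation between cultures.

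Mammalian mitochondrial DNA is transcribed on both strands into long precursors by the mitochondrial RNA polymerase. The tRNAs lie between most of the rRNAs and mRNAs, and their excision releases the other RNAs. The mRNAs encode core subunits of complexes I, III, IV and V of oxidative phosphorylation, and the rRNAs form the mitochondrial ribosome. Most mitochondrial mRNAs then receive a short poly(A) tail, which completes the stop codon where the gene ends within it. Nuclear chromosomes also carry copies of mitochondrial DNA.

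The annotated gene ends showed this compact layout. Of 36 pairs of neighbouring genes, 9 overlapped, 12 were contiguous, 14 were separated by 1 to 5 bases and 1 pair, mt-Tn and mt-Tc, was separated by 32 bases. The last 30 annotated bases of 5 mRNAs are shown because they hold the annotated end of the coding sequence. Capitals mark the final codon, whole or incomplete.
mt-Nd1: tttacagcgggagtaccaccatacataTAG
mt-Co1: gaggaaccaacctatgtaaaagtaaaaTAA
mt-Co3: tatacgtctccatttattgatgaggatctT
mt-Nd4: gtccaaaactaattacaggcctgacaataT
mt-Cytb: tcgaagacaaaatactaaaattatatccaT
The stretches lie at chrMT:3678-3707, chrMT:6843-6872, chrMT:9361-9390, chrMT:11515-11544 and chrMT:15259-15288 of GRCm39, all on the plus strand. As annotated, mt-Nd1 and mt-Co1 end with a whole stop codon, whereas mt-Co3, mt-Nd4 and mt-Cytb end with the single base T. mt-Nd1 shares its last 2 bases with mt-Ti on the same strand, and mt-Ts1 after mt-Co1 lies on the opposite strand. The ends of the RNAs themselves were not measured, so poly(A) may be added elsewhere. Sequences were read from GENCODE M21 transcripts, matched by gene ID, and coordinates from the deposited tables. Lengths matched for all 37 genes.

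A further 3 sequences show the tRNAs with the clearest counts in these libraries.
mt-Tn: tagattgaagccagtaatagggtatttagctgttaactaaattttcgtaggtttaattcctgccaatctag
mt-Tc: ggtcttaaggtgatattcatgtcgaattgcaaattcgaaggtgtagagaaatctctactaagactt
mt-Th: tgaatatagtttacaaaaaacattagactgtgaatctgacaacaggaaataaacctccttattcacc
mt-Tn (asparagine tRNA, chrMT:5089-5159) and mt-Tc (cysteine tRNA, chrMT:5192-5257) lie on the minus strand, and mt-Th (histidine tRNA, chrMT:11546-11612) follows mt-Nd4 on the plus strand. In all, 28 genes lie on the plus strand and 9 on the minus strand, namely mt-Nd6 and 8 tRNAs. Counting ignored the strand, so reads from the opposite strand cannot be told apart. mt-Nd5 and mt-Nd6 overlap by 14 bases on opposite strands, mt-Nd4l and mt-Nd4 by 7 bases, and mt-Atp8 and mt-Atp6 by 43 bases. Fragments assigned to more than 1 gene were not counted.

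Annotated nuclear transcripts differ greatly in how much of each mitochondrial gene they hold. The share of 50-base words that also occur in an annotated nuclear transcript was 100% for mt-Co2, 99.9% for mt-Co3, 99.5% for mt-Atp6, 98.8% for mt-Nd4l and 98.0% for mt-Nd3. It was 62.2% for mt-Nd4, 51.1% for mt-Co1, 8.19% for mt-Nd2, 7.61% for mt-Nd5 and 1.04% for mt-Rnr2, and 0% for mt-Nd1, mt-Cytb, mt-Nd6, mt-Rnr1 and mt-Atp8. Only annotated transcripts were searched, so copies without annotation were not seen. mt-Atp8 lies between mt-Co2 and mt-Atp6, whose copies both lie on chromosome 1, so its 0% may miss such a copy. The copies of mt-Nd4, mt-Nd4l, mt-Nd3, mt-Co3, mt-Atp6, mt-Co2 and mt-Co1 lie side by side on the minus strand of chromosome 1. For example, Gm10925 (chr1:24653055-24653732) matched mt-Atp6 at 678 of 678 aligned bases, and Gm28437 (chr1:24652270-24653052) matched mt-Co3 at 783 of 783. Bases 310 to 369 of mt-Atp6 (chrMT:8236-8295) and of Gm10925 show an identical copy, and bases 460 to 519 of mt-Co1 (chrMT:5787-5846) and of Gm13340, its copy on chromosome 2, show a diverged one, with the 4 differing bases in capitals.
mt-Atp6: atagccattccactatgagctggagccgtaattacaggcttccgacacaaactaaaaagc
Gm10925: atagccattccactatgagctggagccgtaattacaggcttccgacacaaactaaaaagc
mt-Co1: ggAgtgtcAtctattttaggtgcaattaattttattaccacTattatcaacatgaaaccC
Gm13340: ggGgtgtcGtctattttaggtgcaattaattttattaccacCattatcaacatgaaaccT
Reads that aligned to more than 1 place were not counted, per the settings in the file headers. mt-Atp6 received 8637 counts over the 16 files and its copy Gm10925 received 9604, so counts were assigned to both members of this pair. Values for mt-Atp6, mt-Co2, mt-Co3, mt-Nd3 and mt-Nd4l are therefore uncertain, and those for mt-Nd4 and mt-Co1 are uncertain in their copied part.

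The 16 files held 9142413 to 17274128 counts, of which 71938 to 308856 fell on mitochondrial genes. ERCC counts made up 1.79 to 2.92% of the wild-type libraries but 0.0221 to 0.129% of those labelled Nat10-deficient, so levels per spike-in were followed over time within a genotype, and comparisons between genotypes at a single time rest on the other scalings. Nat10 itself was 103 CPM (counts scaled to equal totals of gene counts per library) in both wild-type files at 0 h against 110 and 113 CPM in those labelled Nat10-deficient, and 16.7 and 15.4 CPM against 147 and 161 CPM at 5 h. Nat10 mRNA was thus not lower under the deficiency label, and whether the counted exons include the part that was lost is not given, so these are called the libraries labelled Nat10-deficient throughout. All 14 stem cell markers were detected, and their summed level went from 3378–3425 CPM at 0 h to 479–484 CPM at 5 h in wild type and from 1952–1960 to 383–384 CPM under the other label. Immunoglobulin genes went from 3.91–3.94% of gene counts at 0 h to 66.4–66.7% at 5 h in wild type, and took 6.96–7.0%, 9.78–9.81%, 27.3–27.5% and 4.31–4.34% at 0, 1, 3 and 5 h in the libraries labelled Nat10-deficient. Summed markers of other cell types differed too. Mast cell, basophil and eosinophil markers stood at 365–373 CPM in wild type and 1722–1743 CPM under the other label at 0 h, and at 2452–2545 and 9829–9883 CPM at 3 h. Myeloid markers stood at 6955–6998 and 10928–11026 CPM at 0 h, and erythroid markers at 4187–4215 and 4303–4312 CPM at 0 h but 1524 and 13076–13148 CPM at 5 h. In bulk libraries fewer cells of a type and less RNA per cell cannot be told apart, and the part of these shifts in the results below was not tested.

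At 0 h the counted levels of the 15 mitochondrial mRNAs and rRNAs spanned more than 3 orders of magnitude per kilobase. That span rested on mt-Atp8 and on the 5 almost wholly copied mRNAs, whose reads that aligned to several places were not counted. The 9 others lay at 135 to 2882 CPM per kilobase in wild type. mt-Co1, a catalytic subunit of complex IV, was highest in wild type at 2882 ± 19.1 CPM per kilobase (SD, n = 2 files). mt-Cytb, the complex III subunit, followed at 2112 ± 3.8, the large rRNA mt-Rnr2 at 2090 ± 28.4 and the complex I subunit mt-Nd1 at 1705 ± 9.6 CPM per kilobase. mt-Cytb and mt-Rnr2 did not differ beyond their spread. In the libraries labelled Nat10-deficient mt-Rnr2 (2594 ± 6.4) and mt-Co1 (2577 ± 5.2) stood at the top, ahead of mt-Nd1 (2362 ± 7.4) and mt-Cytb (2334 ± 9.4). Levels were divided by the full length of each gene. For mt-Co1, 51.1% of the words are copied and reads aligned to several places were not counted. Its level may thus be too low and its place in this order is uncertain. These 4 RNAs held most of the mitochondrial counts, with 976297 counts for mt-Rnr2, 931522 for mt-Co1, 432002 for mt-Cytb and 305969 for mt-Nd1 of 2913932 in the 16 files.

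The other complex I subunits and the small rRNA had lower levels. Because the libraries were primed on poly(A), the levels of mRNAs and rRNAs may also reflect how each RNA was primed, which was not tested. Levels in wild type at 0 h were 260.6 for mt-Nd4, 229.1 for mt-Rnr1, 178.2 for mt-Nd6, 148.5 for mt-Nd2 and 135.1 CPM per kilobase for mt-Nd5. The value for mt-Nd4, with 62.2% of its words copied, may be too low for the same reason as that for mt-Co1. Lower still were the 5 mRNAs that are almost wholly copied in the nuclear genome, at 1.71 to 37.7 CPM per kilobase in wild type and from 7.56 to 66.2 under the Nat10 label. The 9 mRNAs and rRNAs with less than 90% of their words copied, mt-Atp8 aside, lay at 135 to 2882 and 199 to 2594 CPM per kilobase. mt-Atp8, a short complex V subunit that overlaps mt-Atp6, had 3 counts in each wild-type file at 0 h and 87 counts over all 16 files.

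**Figure D1:**
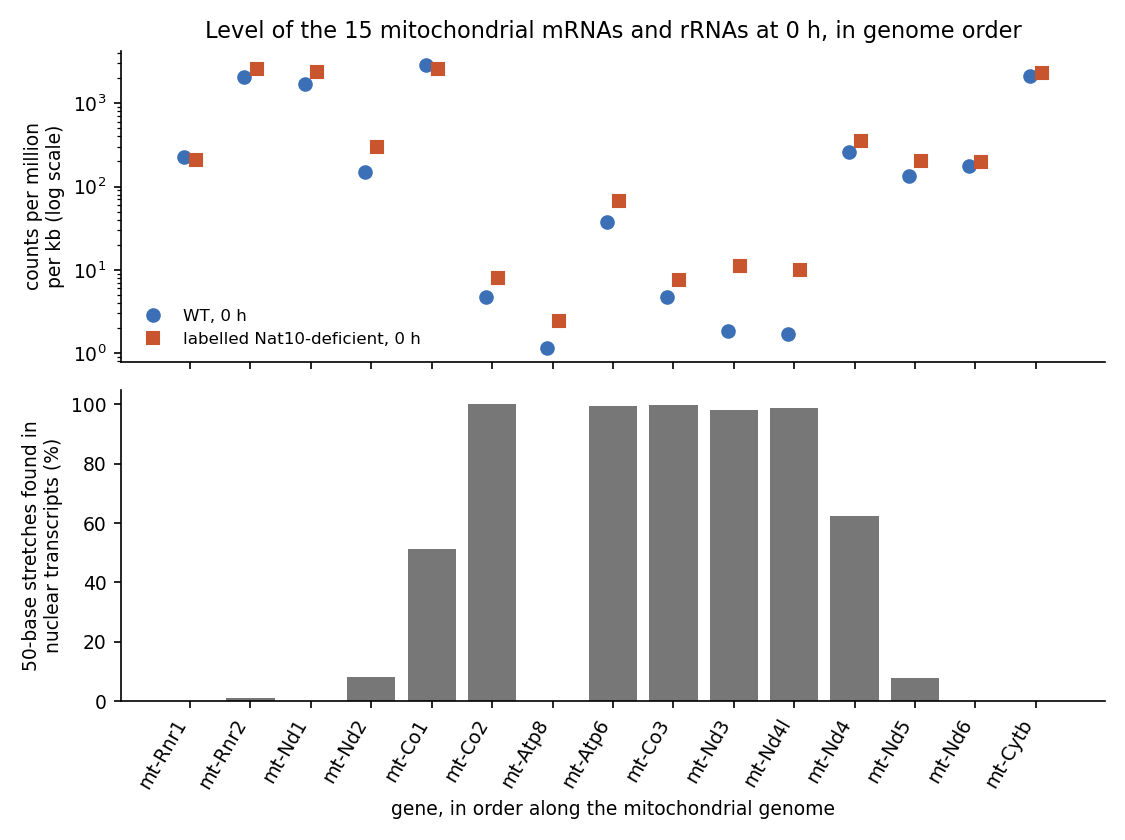
The upper panel plots the level of the 15 mitochondrial mRNAs and rRNAs at 0 h (CPM per kilobase, log axis, means of 2 files; circles wild type, squares labelled Nat10-deficient) in genome order, and the bars below give the percent of their 50-base words found in annotated nuclear transcripts. The 5 members with bars above 90% lie at 1.71 to 37.7 CPM per kilobase in wild type, and the 9 others apart from mt-Atp8 at 135 to 2882.

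The tRNAs were close to absent from these poly(A)-primed libraries. Together they held 2183 of the mitochondrial counts (0.0749%), 5 of the 22 had no count in any file and 6 had 1 to 10 counts in all. Just 8 passed the filter on low counts, namely mt-Ta, mt-Tc, mt-Th, mt-Tl2, mt-Tn, mt-Tr, mt-Ts2 and mt-Tw, which carry alanine, cysteine, histidine, leucine, asparagine, arginine, serine and tryptophan. Of these, mt-Tn and mt-Tc also passed on the wild-type files alone, and the other 6 passed only through the libraries labelled Nat10-deficient, where their counts were higher, so no count of calls is given for tRNAs. At 0 h mt-Th had 0 and 2 counts in the wild-type files and 60 and 45 in those labelled Nat10-deficient. mt-Tn had 2 and 2 against 37 and 36 counts, and mt-Tc 2 and 2 against 34 and 31. Summed over both files, tRNA counts in wild type were 34, 62, 82 and 61 at 0, 1, 3 and 5 h, and 512, 545, 251 and 636 in the libraries labelled Nat10-deficient. The difference was narrowest at 3 h, when mt-Th had 12 counts in each file labelled Nat10-deficient.

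Mitochondrial genes made up about 1% of gene counts, and the direction of the share over time depended on what it was divided by. At 0, 1, 3 and 5 h in turn it was 1.30 and 1.28%, 1.19 and 1.19%, 0.823 and 0.805%, and 0.805 and 0.814% in the first and the second wild-type file. In the libraries labelled Nat10-deficient it was 1.46 and 1.46%, 1.57 and 1.57%, 1.47 and 1.47%, and 2.02 and 2.01%. Counting error was small at this depth, with an exact (Clopper-Pearson) 95% binomial interval of 1.29 to 1.31% for the first wild-type file at 0 h. At every time both files labelled Nat10-deficient lay above both wild-type files; with 2 files against 2, an exact permutation test could not reach 0.05, and none was made. Over all gene counts the wild-type share was 0.482 percentage points lower at 5 h than at 0 h, whereas without immunoglobulin genes in the total it was 1.07 points higher. On that basis the wild-type files ran from 1.35 and 1.34% at 0 h through 1.66 and 1.65% and 1.84 and 1.78% to 2.42 and 2.42% at 5 h, and those labelled Nat10-deficient from 1.56 and 1.57% through 1.74 and 1.74% and 2.03 and 2.03% to 2.11 and 2.10%. Each later time then stood above the one before in both genotypes, and wild type ended higher. The difference of 5 h minus 0 h under the Nat10 label, 0.557 points over all gene counts, became -0.0626 points among protein-coding genes only and -0.0417 points without the 2 rRNAs.

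**Figure D2:**
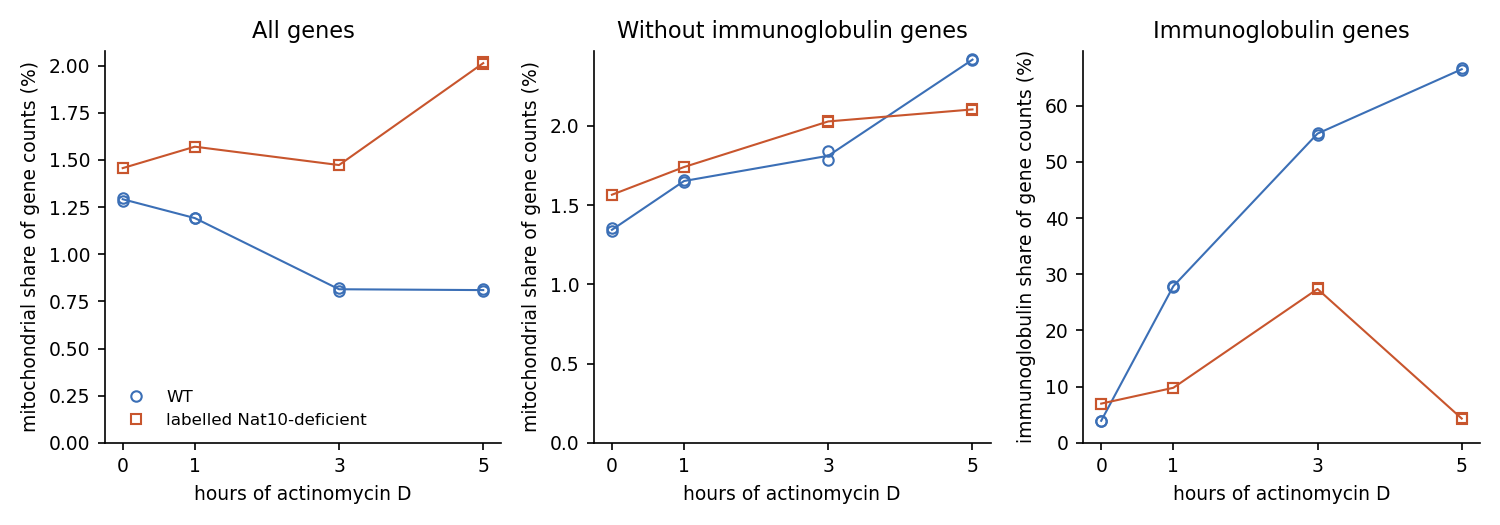
Percent of gene counts on mitochondrial genes over all gene counts (left) and without immunoglobulin genes (middle), and percent on immunoglobulin genes (right), against hours after actinomycin D; symbols are files (circles wild type, squares labelled Nat10-deficient) and lines join group means. The wild-type share ends at 0.805 and 0.814% in the left panel and at 2.42 and 2.42% in the middle panel.

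The make-up of the mitochondrial counts shifted from mRNA to rRNA. The rRNAs took 27.3, 26.0, 27.6 and 38.5% of mitochondrial counts at 0, 1, 3 and 5 h in wild type, and 29.6, 32.9, 37.5 and 51.1% in the libraries labelled Nat10-deficient (means of 2 files). The mRNAs correspondingly went from 72.7 to 61.5% and from 70.3 to 48.8%. These shares sit within the mitochondrial counts and do not depend on the spike-ins or on the immunoglobulin genes. They may depend on how the rRNAs and mRNAs were primed on poly(A), which was not tested.

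Most mitochondrial mRNAs and rRNAs stood higher in the libraries labelled Nat10-deficient than in wild type at 0 h, relative to all genes. mt-Nd4l and mt-Atp8 passed the low-count filter only through the libraries labelled Nat10-deficient, where their counts are higher. Counts of calls are therefore also given without them for TMM at 0 h and for the fall per spike-in. Elsewhere, counts and medians of the 15 include them. Of the 15, 14 were higher and 0 lower in edgeR's quasi-likelihood test with TMM scaling and Benjamini-Hochberg adjustment over 25081 genes, where 36.0% of all genes were called higher and 24.2% lower. Without mt-Nd4l and mt-Atp8 these were 13 of 13 and 0. The median of the 15 was 0.82 on the log2 scale (0.69 without those 2) and that of all genes 0.10. With the 2 files of each group summed and a straight line fitted over the times, 0 of 25081 genes were called at 0 h by edgeR (1240 at an unadjusted p under 0.05), while all 15 estimates stayed above 0. The spread in that fit includes any departure from a straight line over time, so it does not measure the spread between cultures alone. Scaled on a list of 38 long-lived mRNAs in place of TMM, which moved the median of all genes from 0.10 to -0.14, 9 were higher and 3 lower, where 20.5% and 40.3% of all genes were.

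The 2 rRNAs differed by unequal amounts. At 0 h mt-Rnr2 was at 3339 and 3275 CPM in wild type and 4110 and 4096 CPM under the Nat10 label. The log2 difference was 0.53 ± 0.02 (SE), or 0.11 with long-lived mRNA scaling. With files summed mt-Rnr2 was not called (0.69 ± 0.36). mt-Rnr1 was at 218.5 and 219 CPM against 201.9 and 199.2 CPM, so its CPM was lower under the Nat10 label while the TMM-scaled difference was 0.10 ± 0.03 and turned negative with DESeq2 size factors (-0.0042) and with long-lived mRNA scaling (-0.33).

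All 7 complex I mRNAs were called higher, where 36.0% of all genes were, with mt-Nd2 foremost among those with substantial counts. The 7 include mt-Nd4l, which passed the low-count filter only through the libraries labelled Nat10-deficient. mt-Nd2 had 157.7 and 150.5 CPM in wild type against 312.1 and 311.7 CPM, a log2 difference of 1.24 ± 0.04. mt-Nd5 rose from 251.9 and 241.1 to 369.1 and 379.4 CPM (0.82 ± 0.03), mt-Nd1 from 1639 and 1626 to 2255 and 2265 CPM (0.69 ± 0.02) and mt-Nd4 from 365 and 353.2 to 480.2 and 479.4 CPM (0.64 ± 0.03). For these 4 the files of the genotypes did not overlap. The share of all genes without overlap was not counted, and 60.3% of all genes were called in either direction. mt-Nd6, the only mRNA on the minus strand, differed less, at 93.17 and 91.84 against 102.3 and 104.5 CPM (0.38 ± 0.05, or -0.040 with long-lived mRNA scaling). mt-Nd3 (14 and 3 counts against 76 and 55) and mt-Nd4l (7 and 6 against 57 and 44) had few counts and are nearly wholly copied in the nucleus. With the files summed, the estimates were 1.33 ± 0.29 for mt-Nd2 and 0.80 ± 0.34 for mt-Nd1, neither called.

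Complexes III, IV and V showed small differences where the counts were large. mt-Cytb was at 2419 and 2413 CPM in wild type and at 2662 and 2677 CPM in the libraries labelled Nat10-deficient, a log2 difference of 0.37 ± 0.02 that was -0.06 with long-lived mRNA scaling. mt-Co1 had 4474 and 4433 CPM against 3975 and 3986 CPM, lower under the Nat10 label as CPM, called higher by 0.06 ± 0.02 with TMM, and turned to -0.04 with DESeq2 size factors and -0.36 with long-lived mRNA scaling. The direction for mt-Co1 at 0 h thus rested on the scaling. Among the copied mRNAs, mt-Atp6 had 448 and 217 counts against 828 and 708 (1.02 ± 0.11), mt-Co2 had 46 and 36 against 108 and 76 (0.97 ± 0.23) and mt-Co3 62 and 33 against 108 and 94 (0.89 ± 0.22). mt-Co3 was not called without the second wild-type file at 0 h (adjusted p = 0.06 from edgeR). mt-Atp8 (3 and 3 counts against 10 and 7) was not called. The nuclear copy of mt-Atp6, Gm10925, had 459 and 223 counts against 1013 and 805.

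**Figure D3:**
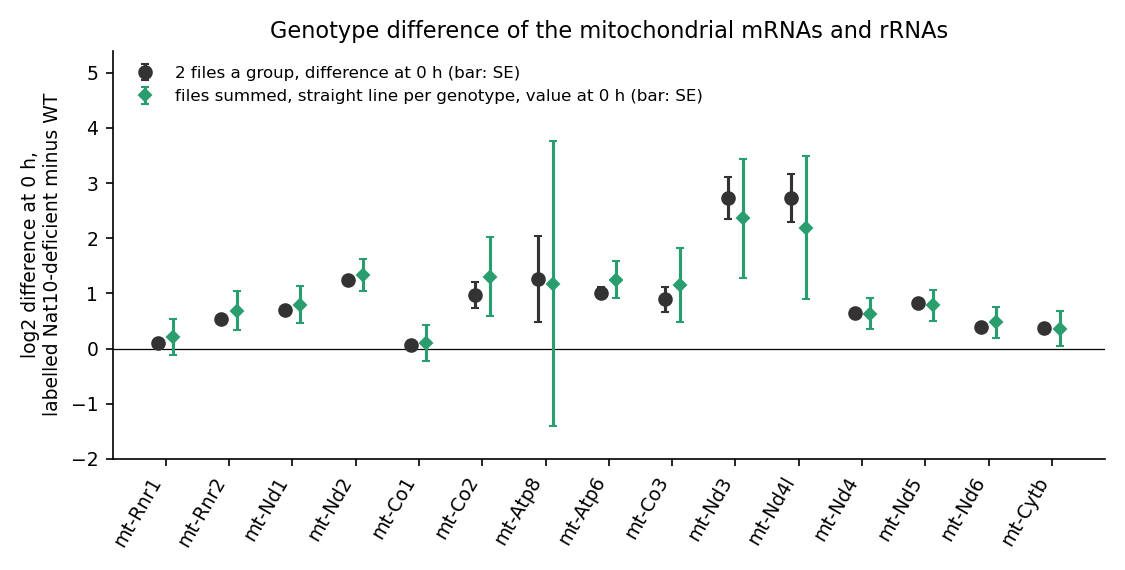
Log2 difference at 0 h (labelled Nat10-deficient minus wild type, bars SE) of the 15 mitochondrial mRNAs and rRNAs in genome order, from the 16-file fit with TMM (circles) and from the fit on summed files (diamonds). All points lie above 0, mt-Co1 nearest to it, and the SEs are wider with files summed; with long-lived mRNA scaling, which is not plotted, mt-Co1, mt-Rnr1, mt-Cytb and mt-Nd6 fall below 0.

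At the later times the members split by gene. The 15 counted here include mt-Nd4l and mt-Atp8, which passed the low-count filter only through the libraries labelled Nat10-deficient. At 1 h 13 of the 15 were higher (32.4% of all genes) and mt-Co1 was lower by edgeR's test (-0.13 ± 0.02; 31.8% of all genes were lower). At 3 h 14 were higher (30.4% of all genes) and 0 lower (37.0%), with mt-Rnr2 at 1.04 ± 0.02 and mt-Nd1 at 0.97 ± 0.02 furthest from 0 among the abundant members. The 3 h counts rested on the scaling and on 1 library. They were 2 higher and 7 lower with long-lived mRNA scaling (10.7% and 61.0% of all genes). In DESeq2 they were 9 higher and 2 lower (5219 and 9224 of 25081 genes). Fewer were higher without the second wild-type file at 3 h. At 5 h 7 were higher (34.2% of all genes) and 4 lower (30.1%). The lower ones were mt-Co1 (-0.49 ± 0.02), mt-Rnr1 (-0.28 ± 0.03), mt-Cytb (-0.15 ± 0.02) and mt-Nd6 (-0.13 ± 0.06), while mt-Nd2 (0.71 ± 0.04), mt-Rnr2 (0.49 ± 0.02), mt-Nd4 (0.30 ± 0.04) and mt-Nd1 (0.29 ± 0.03) were higher. Fewer were lower without the first wild-type file at 5 h. With long-lived mRNA scaling, 2 were higher and 8 lower (20.1% and 42.1% of all genes). The fitted line of the summed files holds no test at 1, 3 or 5 h.

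After actinomycin D, mitochondrial RNA per spike-in was lower at each time than at the one before in both genotypes, with the largest step in the first hour. In the 2 wild-type files all mitochondrial counts per ERCC count stood at 56.5 and 56.9%, 51.3 and 50.1%, and 44.4 and 45.0% of 0 h after 1, 3 and 5 h. The libraries labelled Nat10-deficient stood at 41.3 and 41.1%, 35.7 and 35.1%, and 23.9 and 25.0%, lower percents of their own 0 h level than in wild type. The spike-in share differed between the genotypes, and its part in this difference was not tested. Genes outside the mitochondrial genome stood at 61.2 and 61.8%, 80.8 and 80.8%, and 71.5 and 71.8% in wild type, above the mitochondrial genes and highest at 3 h, and at 38.2 and 38.1%, 35.3 and 34.7%, and 17.2 and 18.0% under the other label. Without immunoglobulin genes they stood at 45.7 and 46.2%, 37.3 and 37.6%, and 24.4 and 24.7% in wild type, and at 37.1 and 36.9%, 27.4 and 27.0%, and 17.7 and 18.5% under the other label. Per count of the long-lived mRNAs, mitochondrial counts at 5 h were 120% of 0 h in wild type and 99.1% under the Nat10 label. A loss per spike-in also counts any loss of cells or of RNA recovered per library, and that part was not tested.

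The rate of loss differed widely among members, from mt-Nd1 with the steepest slope to the rRNAs and mt-Co1 with the least steep. In wild type 12 of 15 fell per spike-in by edgeR's test of the slope over 0, 1, 3 and 5 h, where 57.4% of all genes fell, and in the libraries labelled Nat10-deficient 15 of 15 fell, where 71.3% did (11 and 13 of 13 without mt-Nd4l and mt-Atp8). The median slope of the 15 was -0.22 log2 units per hour in wild type against -0.36 for all genes, and -0.43 against -0.48 under the other label. With the files summed, 2 fell in wild type (mt-Nd1 and mt-Nd4; 26.6% of all genes) and 7 under the other label (mt-Atp6, mt-Cytb, mt-Nd1, mt-Nd2, mt-Nd4, mt-Nd5 and mt-Nd6; 35.4%).

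The complex I mRNA mt-Nd1 had 57.1 and 56.5%, 29.3 and 29.1%, and 11.9 and 11.0% of its 0 h level left in wild type after 1, 3 and 5 h. Under the other label it had 42.0 and 41.7%, 22.4 and 21.8%, and 6.09 and 6.23%. Its fitted slope was -0.60 ± 0.01 log2 units per hour in wild type and -0.75 ± 0.01 in the libraries labelled Nat10-deficient, or half-lives of 1.66 and 1.33 h per spike-in. Half-lives are given only for members whose level fell at every step in both genotypes. They restate the fitted slope as if the rate of loss were constant, which was not tested. Whether actinomycin D stopped transcription in mitochondria was not tested either, so they may not be decay rates. mt-Nd4 was slower, with 22.7 and 21.6% left at 5 h in wild type and 12.3 and 12.7% under the other label (half-lives 2.56 and 1.86 h). The fitted slopes were -0.26 and -0.52 log2 units per hour for mt-Nd5, -0.24 and -0.45 for mt-Nd6, and -0.21 and -0.45 for mt-Nd2. In wild type these 3 stood higher at 3 h than at 1 h on average, so their slopes there are no decay rates: after 1, 3 and 5 h mt-Nd5 stood at 52.7 and 50.8%, 66.3 and 63.5%, and 30.9 and 32.4%, and mt-Nd2 at 49.0 and 46.0%, 67.4 and 63.7%, and 37.7 and 36.0%. Under the Nat10 label both declined at every step.

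The complex III mRNA mt-Cytb was the second fastest among the abundant members. In wild type it had 57.5 and 57.8%, 47.4 and 46.1%, and 21.2 and 21.8% left at 1, 3 and 5 h, and under the other label 37.1 and 37.6%, 28.7 and 27.9%, and 10.3 and 11.0% (half-lives 2.49 and 1.74 h). The complex IV mRNA mt-Co1 behaved differently. In wild type it stayed between 56.8 and 59.8% from 1 to 5 h, with almost the entire loss in the first hour. The copied complex IV mRNAs, with few counts, had means of 65.7, 68.0 and 40.5% (mt-Co2) and 54.1, 59.0 and 50.8% (mt-Co3). Under the Nat10 label mt-Co1 had 39.4 and 39.1%, 40.8 and 40.3%, and 27.4 and 28.6% left. Its fitted slopes were -0.12 and -0.29 log2 units per hour. For the copied mRNAs they were -0.22 and -0.43 for mt-Co2, -0.14 and -0.41 for mt-Co3, and -0.22 and -0.40 for mt-Atp6. The wild-type slope of mt-Co3 was not called without the first wild-type file at 0 h (adjusted p = 0.31 from edgeR).

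The rRNAs were the slowest. After 1, 3 and 5 h mt-Rnr2 had 53.1 and 53.4%, 51.1 and 49.5%, and 61.1 and 61.2% left in wild type, and 45.7 and 45.7%, 44.8 and 44.4%, and 41.1 and 42.7% under the other label. mt-Rnr1 was back at 92.0 and 88.4% of 0 h in wild type at 5 h, after 63.7 and 63.4% at 1 h, and its wild-type slope was not called (adjusted p = 0.97 from edgeR). In the libraries labelled Nat10-deficient mt-Rnr1 stayed between 46.7 and 52.8% from 1 to 5 h. mt-Rnr2 under the Nat10 label was lower at each time than at the one before, but mt-Rnr2 in wild type and mt-Rnr1 under both labels were not, so no half-life is given for the rRNAs. Of the remaining members, mt-Nd3 and mt-Atp8 in wild type were not called, and mt-Nd4l was called there at an adjusted p of 0.0498 by edgeR.

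**Figure D4:**
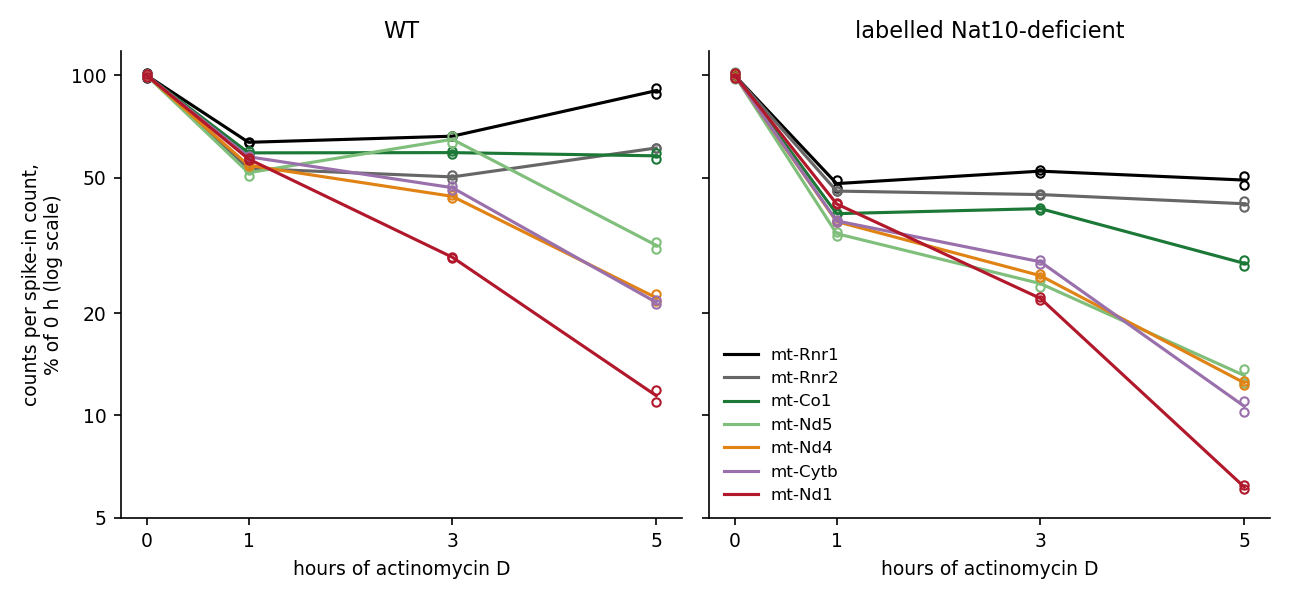
Counts per ERCC count as a percent of the 0 h mean of the genotype (log axis) against hours after actinomycin D for 7 mitochondrial RNAs, wild type on the left and labelled Nat10-deficient on the right; circles are files and lines join means. mt-Nd1 ends lowest, at 11.9 and 11.0% in wild type and 6.09 and 6.23% under the Nat10 label, and mt-Rnr1 in wild type ends highest, at 92.0 and 88.4%.

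The difference between the genotypes in loss per spike-in ran one way. Each slope was fitted within its genotype, whose spike-in shares differed, and the part of that in the difference was not tested. Of the 15, 12 had a lower slope in the libraries labelled Nat10-deficient and 0 a higher one in the test of the difference of slopes, where 32.1% of all genes were lower and 15.7% higher, and the median of all genes was -0.10. mt-Nd5 (-0.26 ± 0.01 log2 units per hour) and mt-Nd2 (-0.24 ± 0.01) differed most among the abundant members, mt-Cytb and mt-Co1 by -0.17 ± 0.01 each, and mt-Rnr2 least, by -0.09 ± 0.01. mt-Nd3, mt-Nd4l and mt-Atp8 were not called. With files summed 0 of 15 were called in edgeR (0.239% of all genes lower; 1723 of 25081 at an unadjusted p under 0.05), all 15 estimates being below 0.

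Relative to other genes, the counts of rising and falling slopes rested on the scaling. With TMM 9 rose in wild type and mt-Nd1 fell (-0.21), where 28.1% of all genes rose and 31.2% fell. In the libraries labelled Nat10-deficient 8 rose and 4 fell, namely mt-Nd1 (-0.27), mt-Cytb (-0.09), mt-Nd4 (-0.05) and mt-Nd5 (-0.03), where 29.0% of all genes rose and 31.8% fell. With long-lived mRNA scaling 8 rose and 3 fell in wild type (22.7% and 38.5% of all genes). Under the Nat10 label 3 rose and 8 fell (13.9% and 48.8% of all genes). With files summed 1 rose in wild type and 0 under the Nat10 label (0.75% and 0.0439% of all genes). mt-Rnr1 rose by 0.39 and 0.34, mt-Rnr2 by 0.29 and 0.29 and mt-Co1 by 0.27 and 0.19 log2 units per hour in wild type and under the other label. Without the 5 h libraries mt-Cytb turned to 0.06 in wild type and 0.04 under the other label, and with long-lived mRNA scaling mt-Nd4 turned to -0.07 in wild type. The test of the difference called 10 lower and 0 higher (24.2% and 24.5% of all genes), with mt-Nd5 at -0.16 ± 0.01 and mt-Nd2 at -0.15 ± 0.01. Fewer were lower without the first wild-type file at 5 h. Without the 5 h libraries 5 were lower and 4 higher (7172 and 5530 of 25081 genes). With files summed 0 were called (1853 of 25081 genes at an unadjusted p under 0.05).

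Ratios between mitochondrial genes need neither spike-ins nor other genes, although they may depend on how each RNA was primed on poly(A). In wild type mt-Nd1 counts were 49.1 and 49.6%, 53.0 and 52.2%, 28.3 and 29.0%, and 9.60 and 8.86% of mt-Rnr2 counts at 0, 1, 3 and 5 h. The libraries labelled Nat10-deficient had 54.9 and 55.3%, 50.7 and 50.3%, 27.5 and 27.0%, and 8.15 and 8.03%. In both genotypes most of the fall in this ratio lay between 1 and 5 h. Scaled on the summed mitochondrial counts, an alternative chosen after the data were seen, the slope of mt-Nd1 was -0.41 log2 units per hour in both genotypes, and their difference with files summed was 0.00 ± 0.10 (95% interval -0.28 to 0.28). This interval does not exclude a moderate difference.

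The other ratios to mt-Rnr2 took differing courses. mt-Nd4 went from 10.9 and 10.8% to 4.04 and 3.84% in wild type and from 11.7 and 11.7% to 3.49 and 3.46% under the Nat10 label. mt-Cytb went from 72.5 and 73.7% to 25.3 and 26.0% in wild type, and from 64.8 and 65.4% to 16.2 and 16.8% under the Nat10 label. Its 3 h values were 67.8 and 68.0% in wild type against 41.7 and 40.8%, so most of the wild-type fall lay between 3 and 5 h. mt-Nd5 was at 7.54 and 7.36%, 7.40 and 7.08%, 9.67 and 9.55%, and 3.77 and 3.94% in wild type, highest at 3 h, and at 8.98 and 9.26%, 6.94 and 6.74%, 5.10 and 4.89%, and 2.77 and 2.93% under the other label. mt-Co1 was at 134 and 135%, 149 and 151%, 158 and 160%, and 125 and 130% in wild type, higher at 1 and 3 h than at 0 h, and at 96.7 and 97.3%, 83.6 and 82.9%, 88.4 and 88.0%, and 64.7 and 64.9% under the Nat10 label. mt-Rnr1 went from 6.55 and 6.69% to 9.95 and 9.56% in wild type and from 4.91 and 4.86% to 5.67 and 5.80% under the other label, with the wild-type files above at each time. These ratios were described and not tested one by one.

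**Figure D5:**
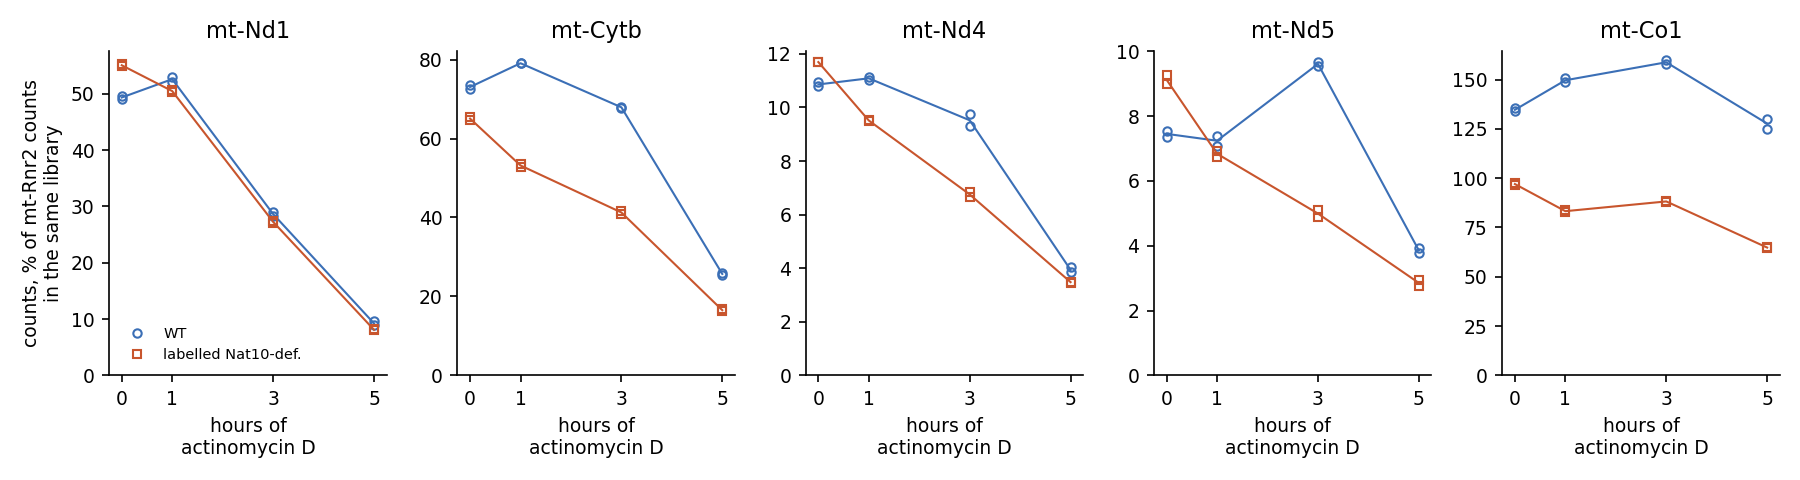
Counts of 5 mitochondrial mRNAs as a percent of mt-Rnr2 counts in the same file (linear axes from 0, 1 panel per gene) against hours after actinomycin D; symbols are files (circles wild type, squares labelled Nat10-deficient) and lines join means. The mt-Nd1 lines end at 9.60 and 8.86% in wild type and 8.15 and 8.03% under the Nat10 label, while mt-Co1 ends at 125 and 130% against 64.7 and 64.9%.

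The nuclear genes that serve mitochondrial gene expression and the nuclear subunits of oxidative phosphorylation were described beside them, from 5 lists of 112 genes, of which 109 matched a symbol in the tables. Of the nuclear subunits 38 of 40 were higher at 0 h and 0 lower (36.0% and 24.2% of all genes), with a median of 0.52 against 0.10 for all genes, although only 21 were higher and 2 lower with long-lived mRNA scaling, where the median was 0.09. Atp5b, the catalytic beta subunit of ATP synthase, had 2088 and 2107 CPM in wild type against 2727 and 2723 CPM (0.60 ± 0.02). Sdhc, which anchors complex II in the membrane, had 91.0 and 87.9 CPM against 146 and 147 CPM (0.94 ± 0.05). The other named members were Atp5a1 (0.54) and Sdhd (0.58). At 5 h 36 were higher and 0 lower (34.2% and 30.1% of all genes), with a median of 0.91 against 0.10.

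At 0 h 36.0% of all genes were called higher and 24.2% lower, with a median of 0.10. Translation factors were higher in 8 and lower in 1 of 11 tested (median 0.47), among them the elongation factors Gfm1 (0.93), Gfm2 (0.81) and Tufm (0.47) and the mt-Co1 translation activator Taco1 (1.07). Processing and stability factors were higher in 10 and lower in 4 of 18 (median 0.25), with Lrpprc, which stabilises mitochondrial mRNAs, at 116.1 and 115.6 against 139.3 and 140.1 CPM (0.49 ± 0.05), and Dhx30 (0.52), Tbrg4 (0.59) and the tRNA 3′ end nuclease Elac2 (0.69) higher. RNA modification enzymes were higher in 9 and lower in 3 of 23 (median 0.08), a share higher close to that of all genes, with Mettl17 (1.28), Trub2 (0.90) and Trmt5 (1.05) higher and Nsun2 (-0.31), a cytosine methyltransferase, lower. Transcription and replication genes split 6 and 6 of 16 (median -0.03): the replicative helicase Twnk was lower, at 60.4 and 55.2 CPM in wild type and 30.2 and 29.8 CPM under the other label (-0.73 ± 0.08), the transcription factor Tfb2m was lower (-0.67), and Mterf1a (1.88) and Mterf1b (-1.99), near-identical copies whose reads may be divided between them, are uncertain. With long-lived mRNA scaling the counts were 4 higher and 3 lower, 3 and 10, 4 and 11, and 1 and 11 for these 4 lists in the order given, where 20.5% of all genes were higher and 40.3% lower. With the files summed 0 genes were called in any of the 5 lists.

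The median loss of the nuclear subunits was less steep than that of all genes. Per spike-in all 40 fell in both genotypes, with median slopes of -0.27 in wild type and -0.31 log2 units per hour in the libraries labelled Nat10-deficient, against -0.36 and -0.48 for all genes. The 15 mitochondrial members had median slopes of -0.22 and -0.43. Relative to other genes 33 nuclear subunits rose and 3 fell in wild type, and 37 rose and 1 fell under the other label, where 28.1% of all genes rose and 31.2% fell, and 29.0% and 31.8%. The difference of slopes per spike-in was lower in 17 and higher in 6 of the 40 (32.1% and 15.7% of all genes), with a median of -0.05 against -0.10 for all genes, whereas 12 of the 15 mitochondrial members were lower and 0 higher, with a median of -0.17. The difference between these lists was not tested.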

How the data were processed

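The deposited tables hold raw counts of fragments per gene, made by the authors with featureCounts 1.6.3 per the file headers, paired and unstranded, over exons, without reads that align to several places or overlap several genes. STAR, DESeq2 and GRCm39 are named in the submitters' processing notes. Of 55414 gene identifiers, 52081 (94.0%) matched a symbol, and 92 ERCC spike-ins were kept apart. The 13 mRNAs, 2 rRNAs and the tRNAs that passed edgeR's filterByExpr (8 of 22; 14 did not) were named, and of each nuclear list up to 4 members with the smallest p at 0 h. The members and lists were chosen with earlier results of these data known. All 16 files were fitted with 1 mean per genotype and time (R 4.3.3, edgeR 4.0.16, quasi-likelihood test, Benjamini-Hochberg threshold 0.05 over 25081 genes). Genotype differences and relative slopes used TMM, and loss used ERCC counts as library sizes. SEs are the log2 value over the root of F. A second fit summed the 2 files of each group and fitted a straight line over the hours per genotype (4 residual degrees of freedom). Its coefficient of variation, 0.9787 with TMM, mixes departure from that line with any variation between cultures. CPM values are counts scaled to equal totals of gene counts per library. Alternatives were DESeq2 1.42.0 with a local dispersion fit, its size factors in edgeR, TMM without immunoglobulin or mitochondrial genes, scaling on 38 long-lived mRNAs, ERCC or mitochondrial counts, no low-count filter, a replicate block and leaving out each file or the 5 h libraries. Over all genes, same-numbered files did not deviate together (correlations -0.0133 to 0.0187 over 28 pairs). With the replicate number as a block, edgeR's coefficient of variation between files was 0.01595 with TMM, against 0.02406 without. On ERCC counts it was 0.03189 against 0.03153. The first file stood higher in CPM on mt-Atp6 in all 8 groups. Whether the numbers pair the files was thus not settled. The 16-file tests were checked on simulated counts, with independent files and a larger spread than that of the 16-file fit. This check does not cover files that share an alignment, or the fit on summed files. Intervals on shares cover counting error only.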

Additional observations from a re-analysis of the deposited data

Results flagged for a closer look

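The slopes of mitochondrial members differed between the genotypes in the 16-file fit, by a test of the difference itself (edgeR, libraries labelled Nat10-deficient minus wild type, log2 units per hour). Per ERCC count the differences for the mRNAs were -0.15 ± 0.01 (SE) for mt-Nd1, -0.24 ± 0.01 for mt-Nd2, -0.15 ± 0.01 for mt-Nd4, -0.26 ± 0.01 for mt-Nd5, -0.20 ± 0.02 for mt-Nd6, -0.17 ± 0.01 for mt-Cytb, -0.17 ± 0.01 for mt-Co1, -0.21 ± 0.07 for mt-Co2, -0.27 ± 0.06 for mt-Co3 and -0.18 ± 0.02 for mt-Atp6. The rRNAs differed by -0.15 ± 0.01 (mt-Rnr1) and -0.092 ± 0.008 (mt-Rnr2). Among the tRNAs, of which mt-Tc and mt-Tn passed the low-count filter on the files of each genotype alone, the fitted differences were -0.62 for mt-Tc and -0.60 for mt-Tn. In wild type both had 2 and 2 counts at 0 h, so the fitted sizes depend on counts near 0.

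Relative to other genes, the slopes differed by -0.057 ± 0.006 for mt-Nd1, -0.15 ± 0.01 for mt-Nd2, -0.055 ± 0.009 for mt-Nd4, -0.16 ± 0.01 for mt-Nd5, -0.11 ± 0.01 for mt-Nd6, -0.0797 ± 0.0053 for mt-Cytb, -0.0799 ± 0.0044 for mt-Co1, -0.17 ± 0.06 for mt-Co3, -0.087 ± 0.03 for mt-Atp6 and -0.053 ± 0.009 for mt-Rnr1. The fitted values for these 2 tRNAs were -0.52 for mt-Tc and -0.51 for mt-Tn. None of the mRNA and rRNA differences was called once the files of each group were summed.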

How the results depend on the processing

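The scaling and the counting of the files decided most calls. With the files of a group summed, the members called of 15 were 0 higher at 0 h (14 in the 16-file fit), 2 falling in wild type (12) and 7 under the Nat10 label (15) per ERCC count, 0 with a lower slope (12), and relative to other genes 1 rising and 0 falling in wild type (9 and 1), 0 and 0 under the Nat10 label (8 and 4) and 0 with a lower slope (10). Long-lived mRNA scaling gave 9 higher and 3 lower at 0 h, and 3 lower at 1 h (12168 of 25081 genes). It gave 2 higher and 7 lower at 3 h, and 2 higher and 8 lower at 5 h. Relative to other genes it gave 3 falling in wild type, and 3 rising and 8 falling under the Nat10 label. DESeq2 size factors gave 1 lower at 0 h (6929 of 25081 genes) and 2 at 3 h (10796). The DESeq2 test gave 1 lower at 0 h (5704 of 25081 genes), and 9 higher and 2 lower at 3 h (5219 and 9224). On ERCC counts, where the spike-in share differs between genotypes and 21114 of 25081 genes were higher at 5 h, 0 were lower at 1 h, and 15 higher and 0 lower at 5 h. Without the low-count filter 2 fell in wild type relative to other genes (7836 of 46080 genes). Leaving out each file in turn gave 9 to 14 higher at 3 h (lowest without the second wild-type file at 3 h), 1 to 4 lower at 5 h (lowest without the first wild-type file at 5 h), and for the difference of relative slopes 0 to 1 higher (highest without the second wild-type file at 5 h) and 6 to 11 lower (lowest without the first).

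Other alternatives were chosen after seeing the data. Without the 5 h libraries, 2 fell under the Nat10 label relative to other genes (6974 of 25081 genes). The difference of relative slopes was then higher for 4 and lower for 5 (5530 and 7172 genes). On mitochondrial counts 3 rose and 5 fell in wild type (16.2% and 48.7% of all genes). Under the Nat10 label 3 rose and 8 fell (13.4% and 49.6%). For the difference, 1 had a higher and 5 a lower slope (29.5% and 20.4%). With files summed as well these were 1 rising, 0 rising, 1 falling and 0 lower.

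The sign turned in these cases. At 0 h, DESeq2 size factors, the DESeq2 test and long-lived mRNA scaling gave -0.0042, -0.0041 and -0.33 for mt-Rnr1 and -0.0407, -0.0407 and -0.36 for mt-Co1, and long-lived mRNA scaling gave -0.0404 for mt-Nd6 and -0.0565 for mt-Cytb. The relative slope of mt-Cytb in wild type was 0.0279 with DESeq2 size factors, 0.0278 in DESeq2 and 0.0631 without the 5 h libraries, where it was 0.0447 under the Nat10 label. That of mt-Nd4 in wild type was -0.0668 with long-lived mRNA scaling and -0.19 on mitochondrial counts. The difference of relative slopes was 0.10, 0.0031 and 0.0021 for mt-Rnr1 without the 5 h libraries, on mitochondrial counts, and on these with files summed. It was -0.0114 and -0.0626 for mt-Rnr2 with TMM without immunoglobulin genes and with long-lived mRNA scaling, 0.0425 for mt-Co1 and 0.0833 for mt-Nd1 without the 5 h libraries, 0.0001 for mt-Nd1 on mitochondrial counts with files summed, and 0.0012 for mt-Nd4 on mitochondrial counts. The share of gene counts, 5 h minus 0 h, was 1.07 points in wild type without immunoglobulin genes, 0.287 among protein-coding genes and -0.441 without the 2 rRNAs, and 0.538, -0.0626 and -0.0417 points under the Nat10 label. Per count of long-lived mRNAs the 5 h level was 120% and 99.1% of 0 h in wild type and under the Nat10 label. Beyond the changed scaling, samples or genes themselves, the cause was not tested.

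With the replicate number as a block the counts were those of the 16-file fit, for example 14 higher at 0 h, 12 and 15 falling and 12 with a lower slope per ERCC count, and 10 with a lower relative slope. TMM without mitochondrial genes moved no count by over 1.5 times. Low counts limit mt-Atp8, mt-Nd3, mt-Nd4l, mt-Co2, mt-Co3 and the tRNAs.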

Other observations

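The 2 files of a wild-type group, which name a single alignment, were unequal on mt-Atp6, the most counted of the mRNAs that are almost wholly copied in the nucleus. The CPM in the first file over that in the second was 1.88, 1.83, 1.88 and 1.64 for mt-Atp6 at 0, 1, 3 and 5 h. It was 0.928 to 1.10 (median 1.01 over 36 values) in wild type for the members with less than 90% of their words copied, in groups with at least 100 counts. In the libraries labelled Nat10-deficient mt-Atp6 had ratios of 1.20, 1.38, 1.16 and 1.29. The other copied members had under 100 counts in each wild-type group. There the ratios were 1.16 to 2.18 for mt-Co2 and 1.33, 1.61, 1.71 and 2.0 (in order of size) for mt-Co3, while those of mt-Nd3 (0.934 at 1 h, 4.24 at 0 h) and mt-Nd4l (0.707 at 3 h, 1.08 at 5 h) lay on both sides of 1. The nuclear copy Gm10925 had 459 and 223, 492 and 201, 239 and 134, and 278 and 106 counts in the first and the second wild-type file at 0, 1, 3 and 5 h. The cause was not tested.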
